A study of Mus musculus with 12 samples.

Results

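The collagen genes of the newborn lung were compared between cavin-1 KO and WT mice. The family was taken as every array probe whose annotated symbol was Col, a type number, a and a chain number, which gave 91 of 45281 probes and 41 of 19057 genes. Lung RNA came from 6 cavin-1 KO (cavin-1-deficient) mice and 6 WT mice, labelled as C57/bl6 and as newborns of 0 to 6 h. The methods state that the newborns were sacrificed within 12 h of birth and that WT littermates served as controls. The study describes the mice as pairs, but the labels do not give which mice were paired, so all tests here are unpaired. Each mouse had its own Illumina MouseWG-6 v2.0 array, a chip of short probes that gives 1 fluorescence signal per transcript probe. Cavin-1 (*Cavin1*, also called PTRF) is a coat protein that caveolae, the small pits of the plasma membrane, need in order to form.

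Collagens are secreted proteins built from 3 chains wound into a triple helix. The fibrillar types make the tensile fibers of the lung interstitium, airways and vessels. Type IV makes the sheet of the basement membranes, type VI makes beaded microfibrils around cells, and the fibril-associated types sit on the surface of fibers. In the lung the fibrillar chains come mostly from fibroblasts and smooth muscle cells, and the type IV chains come from endothelial, epithelial and mural cells.

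No collagen gene passed the adjusted threshold between KO and WT lungs (0 of 41, limma with Benjamini-Hochberg adjustment over 19057 genes, threshold 0.05), where 0.199% of all genes passed. The smallest adjusted p of a member was 0.168, for *Col1a2*. At an unadjusted p under 0.05, 7 of 41 members were lower in KO lungs (17.1%; 7.44% of all genes) and 2 of 41 were higher (4.88%; 6.22% of all genes). Over the 11 arrays without the library labelled KO 157, described next, 3 members were lower (7.32%; 6.52% of all genes) and 3 were higher (7.32%; 5.48% of all genes). With all arrays the 7 were *Col1a2*, *Col5a1* and *Col5a2* of the fibrillar class, *Col6a1* and *Col6a2* of the beaded class, *Col16a1*, and *Col28a1*, which was detected on no KO array. The 2 were *Col11a2* and *Col4a3*. The type IV chains *Col4a1* and *Col4a2* had small differences of opposite sign, and both 95% intervals crossed 0. The within-array ratio of these 2 chains, looked at after their values were seen, did not overlap between the 6 KO and 6 WT arrays.

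The targeted transcript was examined first. The library labelled KO 157 had *Cavin1* signals of 8.47 and 11.66 on its 2 probes on the log2 scale, within the WT ranges of 8.22 to 8.92 and 11.57 to 11.79, while the other 5 KO libraries lay between 1.67 and 2.89 and between 3.60 and 5.37. The title and description of this library name different animals, so it is called the library labelled KO 157 throughout, and values without it are given beside many of the results. Between 45.3% and 49.1% of probes per array were detected, meaning a detection p under 0.05 against the negative control beads. All 8 lung epithelial markers were detected on every array. Smooth muscle markers were below WT in 8 of 8 genes (median log2 difference −0.40, or −0.25 without the library labelled KO 157; none passed the adjusted threshold), with a summed signal of 2360 to 8918 in KO and 5133 to 11091 in WT lungs. Skeletal muscle markers were above WT in 6 of 6 (median 1.93, none passed), with summed signals of 689 to 13395 in KO and 598 to 22896 in WT lungs. Of the smooth muscle markers 6 were detected on all 12 arrays, *Cnn1* on no KO array and 1 WT array, and *Synpo2* on no array. No skeletal muscle marker was at background on every array. In whole lung RNA, fewer cells of a type and less RNA per cell cannot be told apart.

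Of the 41 collagen genes, 25 had a probe that was detected on all 12 arrays, 4 had one detected on all arrays of 1 genotype only, 7 on some arrays, and 5 (*Col6a5*, *Col6a6*, *Col9a3*, *Col10a1* and *Col19a1*) on none. By probe, 39 of 91 were detected on every array and 23 on none, and 0 of 91 probes had an adjusted p under 0.05 (0.148% of all probes). The median log2 difference over the 41 genes was −0.06 in KO relative to WT, beside −0.01 over all genes. Of the 41, 22 were negative, beside 9829 of all 19057 genes. In the 25 genes detected on every array, 16 were negative and the median was −0.16. Over the 12426 genes left by a filter of detection on 3 arrays, the median was −0.02. *Col6a3* and *Col12a1* were not analysed here. The samples' own levels are given below on the log2 scale after normalization, as lowest, median and highest of 6, and a level is compared only with the level of the same gene.

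**Figure D1:**
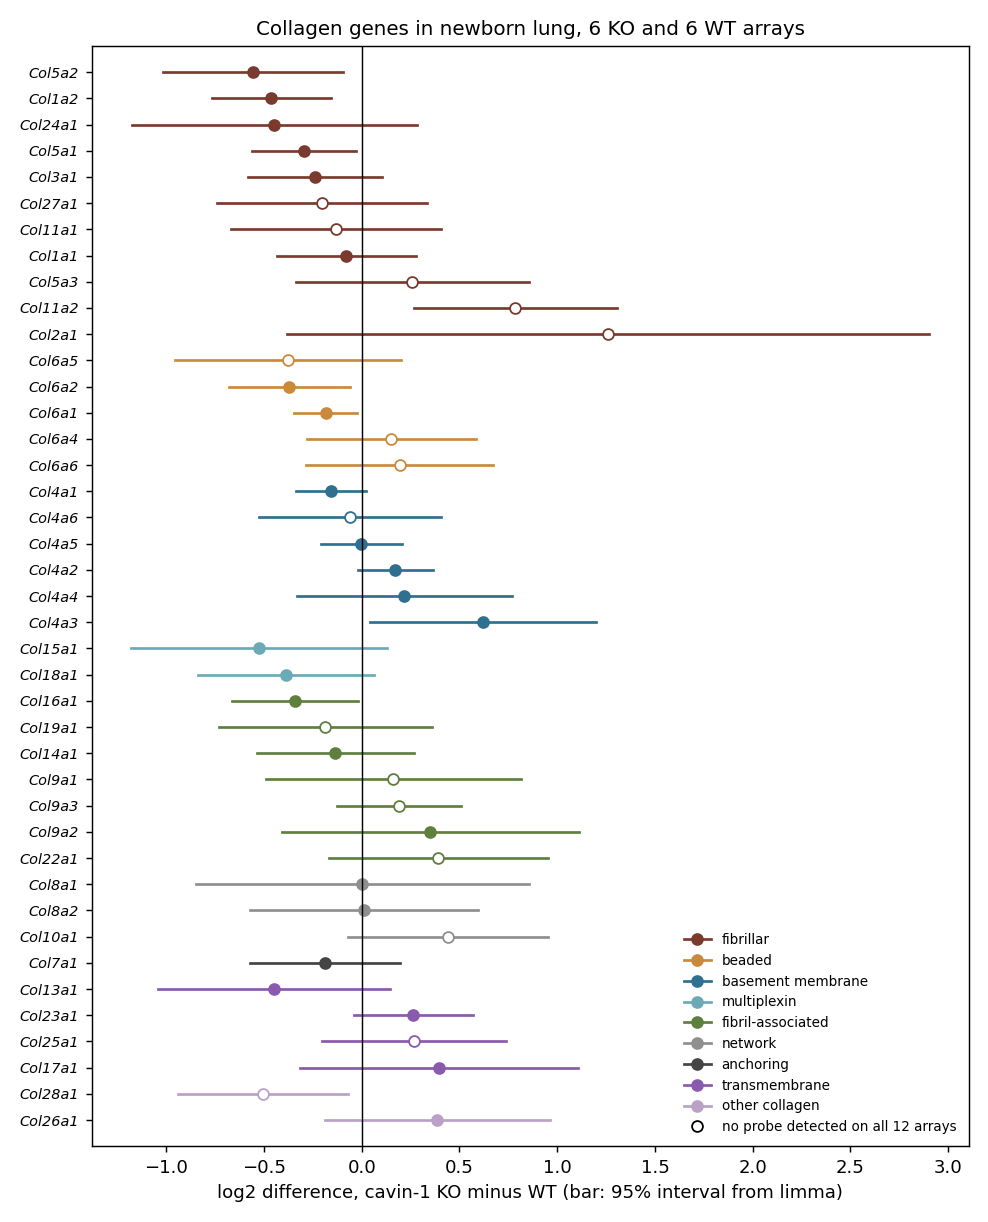
Log2 difference between 6 KO and 6 WT lungs (x axis, no unit) for each of the 41 collagen genes (y axis), colored by class, with the 95% interval from limma as a bar and an open circle where no probe was detected on all 12 arrays. Most intervals cross 0, with the bars of *Col1a2*, *Col5a1*, *Col5a2*, *Col6a1*, *Col6a2*, *Col16a1* and *Col28a1* wholly below it and those of *Col11a2* and *Col4a3* wholly above it.

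The sequences before the starts of 3 of the chains that were lower at an unadjusted p under 0.05 are shown because these chains belong to different trimers and come from different chromosomes. Each is the 250 bases before the RefSeq transcript start in GRCm38.p6, 5′ to 3′ on the gene's strand. Capitals mark the core letters of the CCAAT box (CCAAT, or ATTGG on the other strand), of the GC box (GGGCGG, or CCGCCC on the other strand) and of the TATA box (TATAAA, or TTTATA on the other strand).
Col1a2, chr6:4505368-4505617, plus strand: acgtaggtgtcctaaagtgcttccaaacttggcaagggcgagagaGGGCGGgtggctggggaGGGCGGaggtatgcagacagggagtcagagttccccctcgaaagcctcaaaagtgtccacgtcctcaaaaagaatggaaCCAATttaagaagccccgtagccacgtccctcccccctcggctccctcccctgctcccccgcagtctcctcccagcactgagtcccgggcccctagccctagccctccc
Col5a1, chr2:27886175-27886424, plus strand: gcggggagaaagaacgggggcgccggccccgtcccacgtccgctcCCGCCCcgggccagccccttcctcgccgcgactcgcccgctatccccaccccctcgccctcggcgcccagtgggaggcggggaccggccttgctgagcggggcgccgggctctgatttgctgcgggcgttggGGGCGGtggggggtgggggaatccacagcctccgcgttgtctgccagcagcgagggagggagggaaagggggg
Col6a1, chr10:76726045-76726294, minus strand: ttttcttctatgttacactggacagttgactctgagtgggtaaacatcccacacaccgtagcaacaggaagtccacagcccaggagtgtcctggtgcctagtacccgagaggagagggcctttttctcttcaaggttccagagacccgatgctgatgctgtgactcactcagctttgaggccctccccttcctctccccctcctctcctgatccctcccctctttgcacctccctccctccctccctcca

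The *Col1a2* window held CCAAT and GGGCGG, that of *Col5a1* held GGGCGG alone of these motifs, and that of *Col6a1* held none of them. A promoter was matched for 33 of 41 collagen genes (36 windows). Among these windows 13 held CCAAT (36.1%), 22 held GGGCGG (61.1%) and 5 held TATAAA (13.9%), beside 33.9%, 32.7% and 12.4% of 32851 windows of all genes. A match is a run of letters and not a measured binding site.

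The fibrillar class had 11 members, of which 8 were negative in KO lungs (median −0.20, or −0.16 without the library labelled KO 157). *Col1a2*, the α2 chain of type I collagen, lay at 10.33, 10.65 and 10.90 in KO lungs and at 10.55, 11.19 and 11.37 in WT lungs. All 6 KO values were below the WT median, but WT 177 and WT 179 fell among the KO values, so the groups overlapped. The log2 difference was −0.46 (SE 0.14, 95% interval −0.77 to −0.16, unadjusted p = 0.00531, limma; adjusted p = 0.168), a KO level of 0.726 times the WT level. Without the library labelled KO 157 it was −0.41 (adjusted p = 0.268).

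*Col1a1*, the α1 chain that makes up the rest of the same trimer, had a smaller difference. It lay at 9.91, 10.29 and 10.65 in KO lungs and at 9.92, 10.31 and 11.11 in WT lungs, which is nearly the same range apart from WT 142 at the top. The log2 difference was −0.08 (SE 0.17, 95% interval −0.44 to 0.28, adjusted p = 0.889, limma), or −0.04 with the library labelled KO 157 left out. Its sign turned without WT 142 (0.07). The within-array ratio of *Col1a1* to *Col1a2* was higher in KO than in WT lungs by 0.38 on the log2 scale, with overlapping groups. Ratios of chains were added after the data were seen, so no p is given for them. The 2 chains of type I collagen were thus not shown to differ from each other.

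*Col3a1*, whose product shares fibers with type I collagen in distensible tissues, lay at 8.93, 9.22 and 9.80 in KO lungs and at 9.00, 9.53 and 9.88 in WT lungs. The difference was −0.24 (SE 0.16, adjusted p = 0.562, limma), and its 2 probes had −0.23 and −0.24. Type V collagen nucleates type I fibers and limits their width. The merged values of both measured chains of its common trimer were lower at the unadjusted level. For *Col5a2* this held for the merged value only, since its smallest unadjusted p by single probe was 0.116 (limma). *Col5a1* lay at 10.87, 11.16 and 11.35 in KO lungs and at 11.02, 11.46 and 11.86 in WT lungs, and all 6 KO values were below the WT median. The difference was −0.30 (SE 0.12, unadjusted p = 0.0304, limma; adjusted p = 0.309) and it was −0.24 (adjusted p = 0.462) without the library labelled KO 157. WT 142 was the highest array and WT 177 the lowest WT array for *Col1a1*, *Col1a2*, *Col5a1* and *Col16a1*, so these genes share much of their spread among the WT lungs.

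*Col5a2* needs its probes to be read singly. Its merged level of 3.27, 3.67 and 4.08 in KO lungs and 3.79, 4.21 and 4.66 in WT lungs gave −0.55 (SE 0.22, unadjusted p = 0.0212, limma; adjusted p = 0.276), and all 6 KO values were below the WT median. The merged value is the median of 5 probes, of which only 2 were detected on all arrays. These 2 bright probes had log2 differences of −0.16 (SE 0.14) and −0.07 (SE 0.16), and the remaining 3, detected on 3 to 8 arrays, had −0.46, −0.36 and −0.06. The merged difference is thus larger than that of any *Col5a2* probe.

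Types II and XI are the fibrillar collagens of cartilage. *Col11a2*, a chain of type XI collagen, lay at 3.73, 4.29 and 4.97 in KO lungs and at 2.94, 3.53 and 3.94 in WT lungs, and all 6 KO values were above the WT median. Its difference was 0.79 (SE 0.24, unadjusted p = 0.00546, limma; adjusted p = 0.170), and 0.74 without the library labelled KO 157. It was 0.12 with no background correction, 0.35 with the normexp correction and 0.55 by the brighter probe. Both probes were dim: they were detected on 6 and 5 KO arrays and on 3 WT arrays each. *Col11a1*, the partner chain, had −0.13 (adjusted p = 0.875, limma) and was detected on some arrays only.

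*Col2a1*, the chain of type II collagen and the main fiber protein of hyaline cartilage, varied most of all members between arrays. It read 3.28 in the library labelled KO 157 and 4.88, 3.53, 6.94, 7.51 and 7.80 in KO 186, 192, 235, 237 and 238, against 5.18, 3.94, 4.74, 3.33, 6.22 and 2.98 in WT 142, 177, 179, 182, 187 and 188. KO 235, 237 and 238 were above every WT array, and the other KO arrays lay among the WT values. The log2 difference was 1.26 (SE 0.77, adjusted p = 0.512, limma) and 1.74 (unadjusted p = 0.0309, adjusted p = 0.354) without the library labelled KO 157. *Snorc*, a cartilage marker, ordered the arrays alike at the top: KO 238, 237 and 235, WT 187, WT 142 and KO 186 were the highest 6 of both genes, in the same order. *Snorc* read 2.13 to 7.65 in KO lungs and 1.59 to 5.13 in WT lungs and was detected on 3 KO arrays and 1 WT array.

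Of the other cartilage markers, *Sox9* and *Hapln1* were detected on all 12 arrays, with differences of −0.18 and 0.03. *Acan*, *Matn1* and *Comp* were each detected on 1 KO and 1 WT array. The highest array was KO 235 for *Acan* (3.37), KO 238 for *Comp* (3.83) and WT 187 for *Matn1* (3.92), with KO 237 next for *Comp* (3.49) and *Matn1* (3.84). *Matn3* and *Cnmd* were detected on no array, and the list of 8 had a median difference of 0.03, with a summed signal of 288 to 593 in KO and 326 to 473 in WT lungs. Part of the same arrays also had high skeletal muscle signal: *Acta1*, skeletal muscle actin, read 13.83 in WT 187 and 11.79 to 12.86 in KO 186, 192, 235, 237 and 238, against 8.61 to 10.35 in the remaining WT lungs and 8.72 in the library labelled KO 157. The part of cartilage or muscle tissue in these values was not tested.

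**Figure D2:**
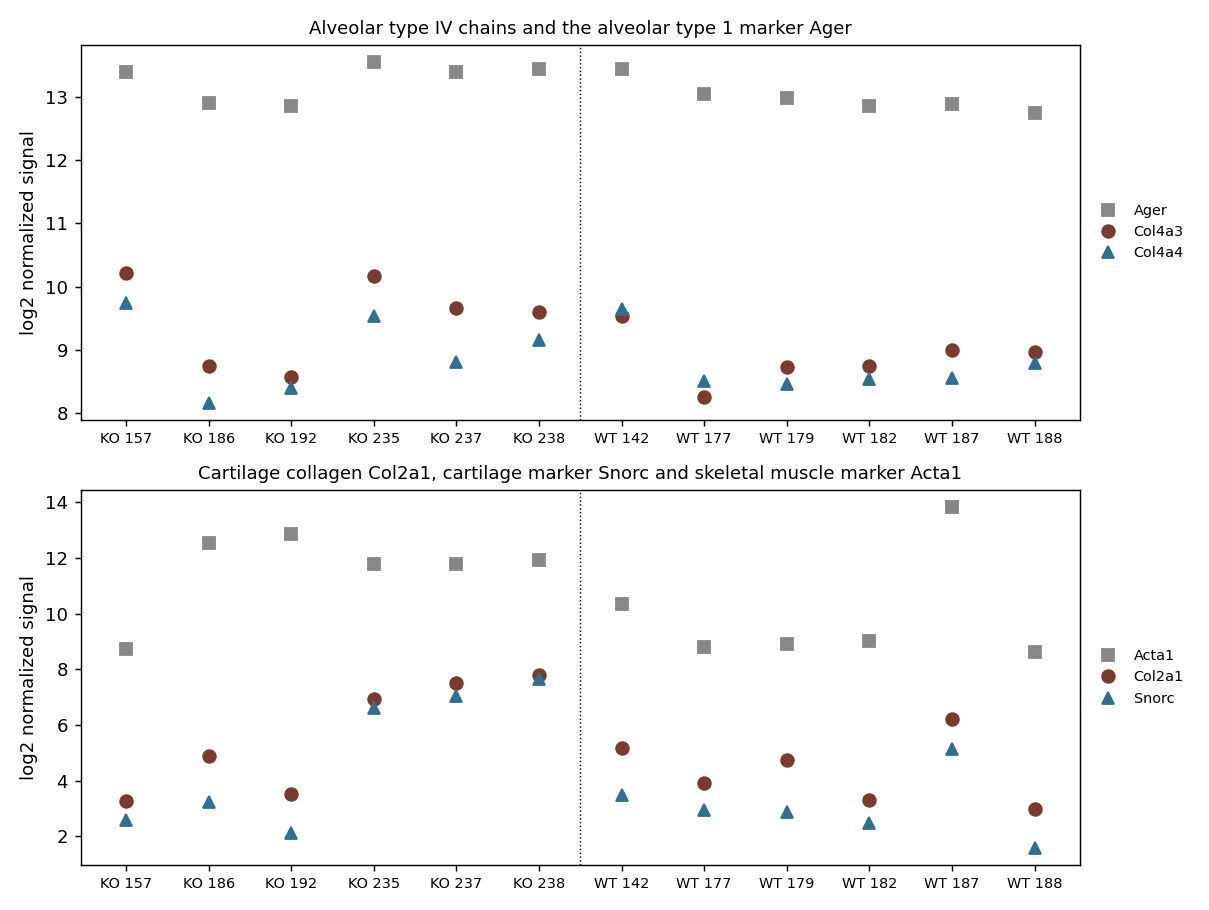
Log2 normalized signal (y axes) on each of the 12 arrays (x axes, KO arrays left of the dotted line and WT arrays right of it) for *Col4a3*, *Col4a4* and *Ager* in the upper panel and for *Col2a1*, *Snorc* and *Acta1* in the lower panel. *Col2a1* and *Snorc* are highest in KO 235, 237 and 238, and *Col4a3* and *Col4a4* are highest on the arrays with the highest *Ager*.

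Of the remaining fibrillar chains, *Col24a1*, *Col27a1* and *Col5a3* had −0.45, −0.20 and 0.26 (unadjusted p from 0.212 to 0.430, limma). *Col24a1* had −0.18 without the library labelled KO 157. Its probe that was detected on every array had −0.37 (SE 0.27) with all arrays. Among fibroblast markers, set beside the fibrillar class, 4 of 8 were negative and the median was −0.04. Of the 8, 0 passed the adjusted threshold (0.199% of all genes) or the unadjusted threshold (7.44% of all genes lower and 6.22% higher). The smallest unadjusted p was 0.0523, for *Pdgfra* at 0.30 (limma). The summed signal of these markers was 6203 to 7970 in KO and 6432 to 8075 in WT lungs. The smooth muscle markers, lower in KO as given above, were on the same side of 0 as *Col1a2*, and their part in its difference was not tested.

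The beaded class was represented by 5 genes, of which *Col6a1* and *Col6a2* were detected on all arrays and *Col6a4*, *Col6a5* and *Col6a6* were at or near background. Type VI collagen links cells to the interstitial matrix, and its common trimer holds 1 chain each of α1, α2 and α3. *Col6a1* lay at 12.23, 12.52 and 12.63 in KO lungs and at 12.59, 12.66 and 12.78 in WT lungs. The only KO array inside the WT range was the library labelled KO 157. The difference was −0.19 (SE 0.08, unadjusted p = 0.0274, limma; adjusted p = 0.299), and −0.22 (SE 0.08, unadjusted p = 0.0123, adjusted p = 0.259) without that library, where *Col6a1* was the 1 of 41 members whose KO and WT arrays did not overlap (1.89% of all genes). Its 2 bright probes had −0.25 and −0.19, and a dimmer probe had 0.02 (SE 0.22).

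*Col6a2* lay at 8.52, 9.03 and 9.41 in KO lungs and at 9.26, 9.35 and 9.58 in WT lungs. KO 186 and KO 192 were above the WT median and the other 4 KO arrays were below every WT array, so the KO spread (SD 0.37) was wider than the WT spread (SD 0.12). The difference was −0.37 (SE 0.15, unadjusted p = 0.0214, limma; adjusted p = 0.277) and −0.27 (adjusted p = 0.428) without the library labelled KO 157. Its 2 probes had −0.32 and −0.42. The ratio of *Col6a1* to *Col6a2* did not separate the genotypes (difference 0.19, with overlapping groups).

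**Figure D3:**
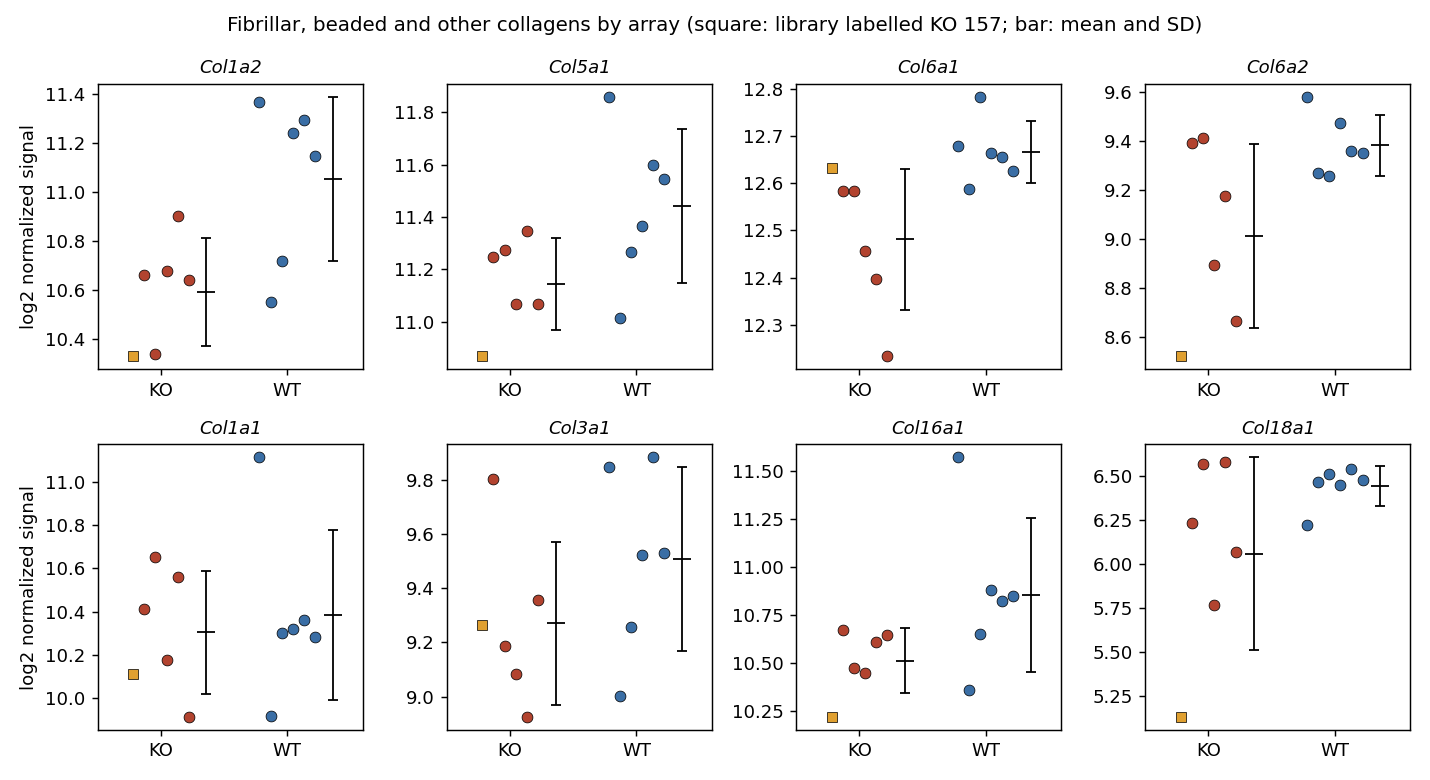
Log2 normalized signal (y axes) of 8 collagen genes in 6 KO arrays (left in each panel) and 6 WT arrays (right), with the mean and SD beside the points and the library labelled KO 157 as a square. The KO points of *Col1a2*, *Col5a1* and *Col6a1* lie at or below the WT medians with overlap, and those of *Col1a1* spread over the WT range.

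The basement membrane class, the 6 type IV chains, had a median of 0.08, or 0.03 without the library labelled KO 157, with 3 genes on each side of 0. *Col4a1* and *Col4a2* encode the chains of the trimer found in nearly every basement membrane, with 2 α1 chains for each α2 chain, and they are transcribed in opposite directions from neighboring starts. In the RefSeq annotation of GRCm38.p6 the first exons overlap by 22 bases, at chr8:11312805-11312826. This stretch is shown on the plus strand, the strand of *Col4a2*, because the result below concerns the 2 genes that leave from it. Motifs are not marked by capitals in this stretch, which holds GGGCGG.
Col4a1 and Col4a2 shared start: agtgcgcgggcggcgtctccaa

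*Col4a1* lay at 13.72, 14.03 and 14.27 in KO lungs and at 14.08, 14.12 and 14.29 in WT lungs, with a difference of −0.16 (SE 0.09, 95% interval −0.34 to 0.02, adjusted p = 0.445, limma). *Col4a2* lay at 12.74, 13.08 and 13.32 in KO lungs and at 12.84, 12.90 and 13.05 in WT lungs, with a difference of 0.17 (SE 0.09, 95% interval −0.02 to 0.36, adjusted p = 0.428, limma). Leaving out the library labelled KO 157, *Col4a1* had −0.17 and *Col4a2* had 0.13. Neither gene alone separated the groups. On each array, however, the level of *Col4a1* above that of *Col4a2* was smaller in KO than in WT lungs.

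This within-array log2 ratio was 0.80 in the library labelled KO 157 and 0.94, 0.91, 0.99, 0.86 and 0.98 in KO 186, 192, 235, 237 and 238, against 1.21, 1.26, 1.15, 1.40, 1.22 and 1.20 in WT 142, 177, 179, 182, 187 and 188. All 6 KO values were below all 6 WT values. The library labelled KO 157, whose *Cavin1* signals lay within the WT ranges, had the lowest ratio of all arrays. The mean was 0.91 ± 0.07 in KO and 1.24 ± 0.09 in WT lungs (SD, n = 6 each), a difference of −0.33. Without the library labelled KO 157 the difference was −0.30, again without overlap. The ratio itself has no meaning across probes with different responses, and only its difference between the genotypes is read here.

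The pair was picked after its values were seen, so no p is given for it. It was 1 of 7 pairs of chains sharing a trimer or fiber whose ratios were computed in the same way, and the groups overlapped in the other 6, with a difference of 0.40 for *Col4a3* to *Col4a4*. Among all 820 pairs that the 41 collagens can form, the KO and WT arrays did not overlap in 8 (0.976%). Of these 8, 3 were among the 300 pairs of genes detected on every array. They were *Col4a1* to *Col4a2*, *Col4a2* to *Col6a1* and *Col4a2* to *Col6a2*, so *Col4a2* was in each. No such share was computed over pairs of all genes. Each chain has 1 probe, and the *Col4a1* probe had the highest raw signal of all collagen probes (mean 15243 in KO and 19907 in WT lungs, beside 8295 and 8484 for *Col4a2*). The part of signal compression at such brightness was not tested. The raw means of both chains were lower in KO, so the positive *Col4a2* difference is that of the normalized signal.

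**Figure D4:**
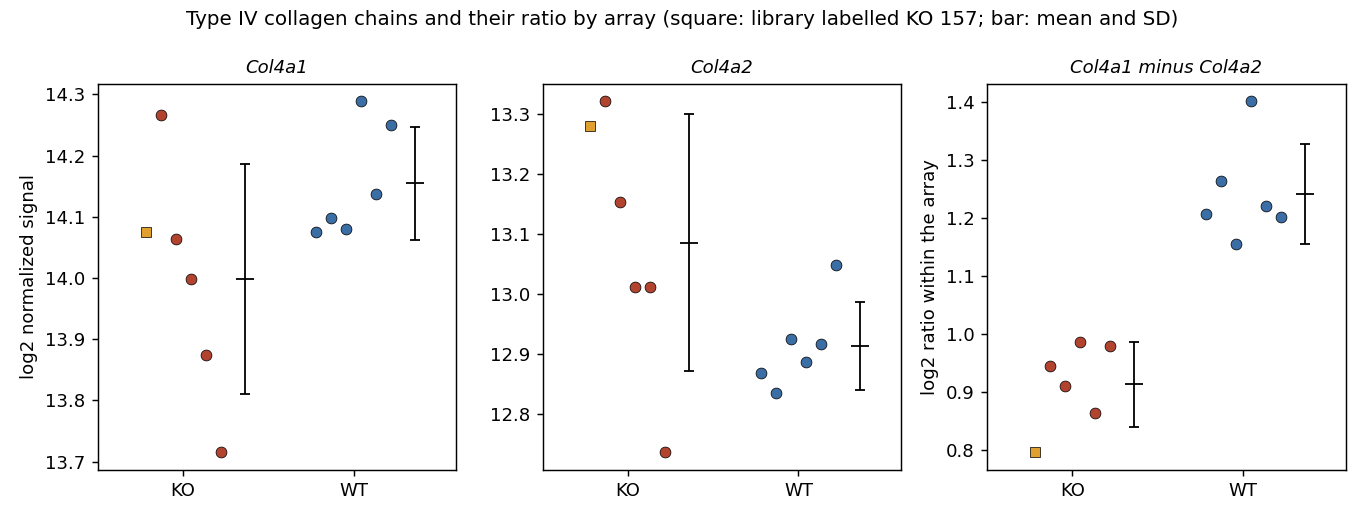
Log2 normalized signal of *Col4a1* and of *Col4a2* (left and middle panels, y axes) and the within-array log2 ratio of *Col4a1* to *Col4a2* (right panel, y axis) in 6 KO arrays (left) and 6 WT arrays (right), with mean and SD and the library labelled KO 157 as a square. The KO ratios lie between 0.80 and 0.99 and the WT ratios between 1.15 and 1.40.

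*Col4a3*, *Col4a4* and *Col4a5* encode the chains of a second type IV trimer, which in the lung is found in the alveolar basement membrane. *Col4a3* lay at 8.56, 9.63 and 10.21 in KO lungs and at 8.25, 8.85 and 9.53 in WT lungs. Its difference was 0.62 (SE 0.27, unadjusted p = 0.0368, limma; adjusted p = 0.329) and, leaving out the library labelled KO 157, 0.48 (adjusted p = 0.497). The KO arrays fell into a high part, the library labelled KO 157 and KO 235, 237 and 238 at 9.59 to 10.21, and a low part, KO 186 and KO 192 at 8.74 and 8.56, which lay within the WT range.

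*Col4a4* had a smaller difference of 0.22 (SE 0.26, adjusted p = 0.773, limma), which was 0.06 without the library labelled KO 157, and *Col4a5* had 0.00 (95% interval −0.21 to 0.20). The same 5 arrays, the library labelled KO 157, KO 235, 237 and 238 and WT 142, were the highest 5 for *Col4a3*, for *Col4a4* and for *Ager*, a marker of alveolar type 1 cells. *Ager* read 13.40 to 13.56 on these 5 arrays and 12.76 to 13.04 on the other 7, with a genotype difference of 0.26 (SE 0.13, adjusted p = 0.404, limma). These 5 arrays were also the highest for the mesothelial markers *Msln* and *Lrrn4*. *Msln* read 11.28 to 11.97 on them and 10.37 to 10.90 on the other 7. *Lrrn4* read 6.77 to 7.52 on them and 4.54 to 5.87 on the other 7. The mesothelial markers *Upk3b*, *Upk1b* and *Krt19* did not have the same 5 arrays highest. The part of alveolar type 1 cells or mesothelial cells in the *Col4a3* difference was not tested. *Col4a6*, detected on 6 KO and 5 WT arrays by its best probe, had −0.06.

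The multiplexins *Col15a1* and *Col18a1* lie in the zone between basement membranes and the interstitium, and the end of the *Col18a1* product is released as endostatin. *Col18a1* lay at 5.13, 6.15 and 6.58 in KO lungs and at 6.22, 6.47 and 6.54 in WT lungs, with the library labelled KO 157 as the lowest array. Its merged difference was −0.39 (SE 0.21, adjusted p = 0.446, limma), and −0.20 (adjusted p = 0.664) without that library. The brightest of its 3 probes had −0.41 (SE 0.13, unadjusted p = 0.00452, adjusted p = 0.162 over all probes, limma). With each gene read by its brightest probe, *Col18a1* had −0.29 without that library (unadjusted p = 0.00866, adjusted p = 0.198, limma). *Col15a1* had −0.52 (SE 0.31, adjusted p = 0.491, limma) and −0.24 without the library labelled KO 157, whose value of 4.90 was below the 6.26 to 7.56 of the other KO lungs and the 6.37 to 7.23 of WT lungs. Endothelial markers, a cell type that deposits both, were positive in 4 of 6 genes (median 0.16, or 0.21 without the library labelled KO 157). They included *Tie1* and *Pecam1* at 0.44 each and *Kdr* at −0.19, and none passed the adjusted threshold.

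The fibril-associated class had 7 measured genes with a median of 0.16, or −0.14 over the 3 that passed a stricter detection filter. *Col16a1* lay at 10.22, 10.54 and 10.67 in KO lungs and at 10.36, 10.84 and 11.57 in WT lungs, and all 6 KO values were below the WT median. Its difference was −0.34 (SE 0.15, unadjusted p = 0.0394, limma; adjusted p = 0.337), and it was −0.28 (adjusted p = 0.485) without the library labelled KO 157. *Col14a1*, which binds the surface of type I fibers, had −0.14 (SE 0.19, adjusted p = 0.813, limma). The type IX chains, which decorate cartilage fibers, had 0.16 (*Col9a1*), 0.35 (*Col9a2*) and 0.19 (*Col9a3*, detected on no array). Without the library labelled KO 157, *Col9a2* had 0.67 (unadjusted p = 0.0257, adjusted p = 0.335, limma). With all arrays the brightest *Col9a1* probe, detected on 4 KO and 3 WT arrays, had 1.36 (SE 0.83). Another *Col9a1* probe, detected on 3 KO and 5 WT arrays, had −0.36 (SE 0.44), and the remaining probes of this gene were detected on no array.

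Among the transmembrane collagens, *Col23a1* lay at 8.24, 8.80 and 9.17 in KO lungs and at 8.09, 8.51 and 8.64 in WT lungs, with a difference of 0.26 (SE 0.14, adjusted p = 0.447, limma), or 0.17 with the library labelled KO 157 set aside. The other transmembrane members were *Col17a1*, the hemidesmosomal collagen of epithelia, at 0.40 (SE 0.34), *Col13a1* at −0.45 (SE 0.28) and *Col25a1* at 0.27 (SE 0.22). *Col25a1* was detected on some arrays only, and its merged difference lies above that of each of its 5 probes. Its most often detected probe, on 3 KO and 4 WT arrays, had −0.33 (SE 0.34). *Col8a1* and *Col8a2*, the network-forming type VIII chains, had 0.00 and 0.01. *Col8a1* had a wide interval of −0.85 to 0.85, and a difference of 0.15 without the library labelled KO 157. The *Col8a2* probe that was detected on every array had 0.16 (SE 0.20), and the other probes of this gene were detected on no array. The anchoring fibril gene *Col7a1* had −0.19 (SE 0.18). *Col28a1* was detected on no KO array and on 3 WT arrays (adjusted p = 0.296, limma), and no difference is given because the bound from the detection limit is under 1.

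Over the 11 arrays without the library labelled KO 157, 0 of 41 members passed the adjusted threshold. At an unadjusted p under 0.05 the 3 lower were *Col1a2*, *Col5a2* and *Col6a1*, and the 3 higher were *Col2a1*, *Col9a2* and *Col11a2*. With all arrays, 0 of 41 members had KO and WT values that did not overlap, beside 1.48% of all genes.

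The genes that make, process and bind collagen were read as fixed lists. Of 19 genes of chain synthesis (prolyl and lysyl hydroxylases, chaperones and export), 13 were negative (median −0.11) and 1 passed the adjusted threshold (0.199% of all genes passed). In 20 of 23 other settings 0 passed. This was *P4ha3*, a catalytic subunit of prolyl 4-hydroxylase, which averaged 2.65 ± 0.42 in KO and 3.88 ± 0.28 in WT lungs (SD, n = 6 each), without overlap. Its fitted log2 difference was −1.23 (SE 0.23, adjusted p = 0.0477, limma), but its probe was detected on no KO array and on 5 WT arrays. Set against the lowest detected signal of each KO array, the WT mean was 1.14-fold higher. That mean takes in WT signal without detection, so the value is not a strict lower bound. Without the library labelled KO 157 the difference was −1.30 and did not pass (adjusted p = 0.0596). *Plod1*, a lysyl hydroxylase, had 0.55 (SE 0.19, adjusted p = 0.213), and *Sec23a*, of the vesicle coat that exports procollagen, had −0.41 (SE 0.14, adjusted p = 0.215).

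Of 12 genes for the processing and crosslinking of collagen, 8 were positive (median 0.20) and 0 passed. *Loxl4*, a lysyl oxidase that forms crosslinks, averaged 4.92 ± 0.58 in KO and 3.99 ± 0.40 in WT lungs (SD, n = 6 each; 0.93, SE 0.28, adjusted p = 0.150, limma). *Pcolce2*, an enhancer of procollagen cleavage, averaged 9.18 ± 0.81 in KO and 10.07 ± 0.28 in WT lungs (SD, n = 6 each; −0.88, SE 0.28, adjusted p = 0.182, limma). Among 9 collagen receptors the median was −0.07 and 0 passed. *Itga2*, which encodes the α2 integrin subunit, had −0.66 (SE 0.16, adjusted p = 0.0836, limma; −0.57 without the library labelled KO 157).

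Of 15 fibril-binding proteoglycans and glycoproteins, 12 were negative (median −0.19, or −0.08 without the library labelled KO 157) and 0 passed. *Dpt* (dermatopontin) had −0.52 (SE 0.18, adjusted p = 0.208), *Sparc* had −0.19 (SE 0.08, adjusted p = 0.306) and *Omd* had 0.80 (SE 0.33, adjusted p = 0.299, limma). The 7 collagen-degrading enzymes had a median of −0.02, or 0.12 without the library labelled KO 157. None had an unadjusted p under 0.05, where 7.44% of all genes were lower and 6.22% higher at this level. The smallest p was that of *Mmp2*, a gelatinase (0.22, SE 0.11, unadjusted p = 0.0644, adjusted p = 0.401, limma).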

How the data were processed

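Lung RNA of 6 KO and 6 WT newborn mice was hybridized to an array each. The deposited intensity is the mean over the beads of a probe, as GenomeStudio gives it before any subtraction or scaling. Beside it stands the deposited detection p-value of the probe against negative controls. A separate deposited table held the authors' background-subtracted, quantile-normalized intensity values and was used as an alternative after a floor of 16. Here the signals were corrected with the RMA convolution, quantile-normalized and put on the log2 scale (R 4.3.3, limma 3.58.1). Probes were named by the platform annotation, and the 34885 with 1 gene were merged by median into 19057 genes. KO and WT were compared with limma with a trend and Benjamini-Hochberg adjustment, tried first on simulated data. Array signal over background and 6 arrays a group limit the precision.

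The members, classes and gene lists were chosen with earlier results of these data known. The genes given by array are the 12 with the smallest p among detected members plus *Col1a1*, *Col1a2*, *Col3a1*, *Col2a1*, *Col4a1*, *Col4a2*, *Col6a1* and *Col6a2*; up to 3 of each list were named by smallest p. The marker lists were lung epithelium, endothelium, fibroblast, smooth muscle, pericyte, mesothelium, cartilage, bone, skeletal muscle and skin epithelium. Ratios of chains and the order of arrays were added after the data were seen. Alternatives were other background corrections and scalings, the authors' values, detection filters, the brightest probe, limma without a trend, the methods' t-test, array weights and each array left out. Sequences are from RefSeq. Plots were drawn with matplotlib 3.10.9.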

Additional observations from a re-analysis of the deposited data

Results flagged for a closer look

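Of 44 groups of 6 values examined (15 genes and 7 ratios in both genotypes), 3 held an array far from the rest of its group, where about 1 in 20 groups would be set apart by chance. WT 142 had the highest *Col1a1* level of the WT lungs (11.11, with the next at 10.36) and the lowest *Col18a1* level (6.22, with the next at 6.45). WT 177 had the lowest log2 ratio of *Col5a1* to *Col5a2* (6.35, with the next at 7.14), and the merged *Col5a2* level behind it takes in dim probes.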

How the results depend on the processing

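Under all 23 other settings 0 of the collagen genes passed the adjusted threshold in either direction. The number lower at an unadjusted p under 0.05 was 7 and became 4 with the authors' values, 4 with limma without a trend and 4 with the brightest probe and the library labelled KO 157 left out. It was 3 to 9 when single arrays were left out, with 3 without the library labelled KO 157 and 4 without KO 235 or KO 238. The number higher was 2 and became 1 with the authors' values, with the stricter detection filter, with limma without a trend and with the methods' t-test, and 1 to 4 when single arrays were left out (4 without KO 192; 1 without KO 235, WT 177 or WT 182). Over all 19057 genes the number under 0.05 in either direction moved as well. It was 2603 with the setting reported, 2040 with the authors' values, 2399 with limma without a trend and 2461 with the methods' t-test. It was 2580 with the brightest probe and the library labelled KO 157 left out. The stricter detection filter had 2174 of 10650 genes, and single left-out arrays gave 2234 to 2923. The median over all members was −0.06 and ranged from −0.128 to 0.0604 over the left-out arrays, turning positive without WT 142. The fibril-associated median was 0.16, 0.35 over the 5 genes left by the detection filter and −0.14 over the 3 left by the stricter filter, where fewer genes were tested. The difference of *Col1a1* was −0.171 to 0.0675 over the left-out arrays, and its sign turned without WT 142; in the cases named here the cause was not tested unless given. The other named collagens kept their sign, but *Col11a2* ranged from 0.12 to 0.90, *Col5a2* from −0.64 to −0.08 and *Col2a1* from 0.50 to 2.19, each nearest 0 with no background correction. The fibrillar median ranged from −0.33 to −0.04. The *Col4a1* to *Col4a2* ratio had a difference of −0.35 to −0.30 under 20 other settings. A gene of chain synthesis, *P4ha3* with the setting reported, passed the adjusted threshold in 3 of 23 other settings. No paired analysis was possible because the labels of KO and WT mice share no replicate number and do not give the pairs that the study mentions. For 16 of the 41 genes no probe was detected on every array. In *Col5a2*, *Col7a1*, *Col8a1*, *Col8a2*, *Col18a1*, *Col24a1* and *Col26a1* a probe detected on every array was merged with dimmer probes that were not.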

Other observations

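Among the remaining marker lists, mesothelial markers were above WT in 5 of 5 genes (median 0.41, or 0.25 without the library labelled KO 157). Their summed signal was 3186 to 7177 in KO and 3406 to 5467 in WT lungs. Pericyte markers were above WT in 5 of 6 (median 0.18), led by *Pdgfrb* (0.31, SE 0.11, adjusted p = 0.238, limma). Bone markers had a median of −0.03, with *Sp7*, *Bglap* and *Dmp1* detected on no array, and skin epithelial markers had −0.09. Lung epithelial markers had a median of 0.07, with *Scgb1a1*, the secretoglobin of club cells, at 14.18 ± 0.23 in KO and 14.59 ± 0.11 in WT lungs (SD, n = 6 each; −0.41, SE 0.10, adjusted p = 0.0836, limma). None of these lists held a gene past the adjusted threshold with all arrays.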
